A study of Mus musculus with 15 samples.

Results

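A group of 8 genes of the immunoproteasome and of class I peptide loading was followed across 6 groups of dendritic cell (DC) arrays. They are Psmb8, Psmb9 and Psmb10 (inducible catalytic subunits of the 20S proteasome), Psme1 (the PA28 alpha subunit of an 11S proteasome activator), Tap1 and Tap2 (the peptide transporter), Tapbp (tapasin) and B2m (beta-2 microglobulin). Members were all probe sets whose only gene symbol in the platform annotation was 1 of these 8 names, which gave 12 probe sets of the 12422 tested and 8 of the 8251 genes with a single-symbol probe set. For each gene the probe set with the highest mean over the 15 arrays is the main one.

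The DC were grown for 4 days from bone marrow of female NOD mice, aged 6 to 8 weeks, a strain that develops autoimmune diabetes. GM4 DC received 1 ng/ml GM-CSF with 1 ng/ml interleukin-4 and were purified on a 14.5% metrizamide gradient. GM DC received 1 ng/ml GM-CSF alone and were purified on a 16% gradient, so the cytokine and the gradient cannot be told apart. Both were then exposed to 10 µg/ml lipopolysaccharide (LPS) with 50 ng/ml interferon-γ, and RNA was taken at 0, 6 and 20 h. The 0 h time had 3 GM4 and 3 GM arrays, 6 h had 3 GM4 and 2 GM arrays, and 20 h had 2 of each type. The protocol of GM4 0 h replicate 1 gives neither doses nor gradient, and the source names of the GM4 0 h samples mention the stimulus although their titles say 0 h. The labels call the replicates biological and say that some RNA was not good enough for an array. They do not say whether cells of several mice were pooled.

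Class I molecules display short peptides from the cytosol to CD8 T cells. Proteasomes cut proteins into peptides, the TAP transporter carries these into the endoplasmic reticulum, and tapasin helps to load them onto a heavy chain paired with beta-2 microglobulin. Interferon-γ is known to induce the catalytic subunits Psmb8, Psmb9 and Psmb10, which take the places of Psmb5, Psmb6 and Psmb7 in newly built proteasomes and change which peptides are made.

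The promoter windows are shown because several of these genes moved together after a stimulus that contains interferon-γ. RefSeq windows on GRCm38.p6, from 250 bases before to 50 bases after the start site, were found for 7 of the 8 genes (all but Tap2). Capitals mark matches, on either strand, to an interferon-stimulated response element core (GAAA, any 2 bases, GAAA), an interferon-γ activated site (TTC, any 3 bases, GAA) or a kappaB site (GGG, any 2 bases, TTTCC), which are in 3.44%, 8.3% and 1.63% of 32851 windows of the same length. The 4 windows printed here are those of the 3 members with a match and the one shared by Tap1 and Psmb9.
Psmb8, chr17:34197945-34198244, plus strand: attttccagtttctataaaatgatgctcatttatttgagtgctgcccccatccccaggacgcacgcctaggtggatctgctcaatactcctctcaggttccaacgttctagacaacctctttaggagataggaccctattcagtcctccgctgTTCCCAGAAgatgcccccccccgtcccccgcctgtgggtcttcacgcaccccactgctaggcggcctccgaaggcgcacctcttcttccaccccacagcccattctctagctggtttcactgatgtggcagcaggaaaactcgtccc
Psme1, chr14:55578244-55578543, plus strand: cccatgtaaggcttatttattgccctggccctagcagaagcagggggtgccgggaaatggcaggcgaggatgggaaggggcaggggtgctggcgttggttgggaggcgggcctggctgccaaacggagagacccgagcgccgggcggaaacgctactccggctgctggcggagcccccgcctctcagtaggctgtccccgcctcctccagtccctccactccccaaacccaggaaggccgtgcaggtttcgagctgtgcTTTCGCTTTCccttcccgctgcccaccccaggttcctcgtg
B2m, chr2:122147437-122147736, plus strand: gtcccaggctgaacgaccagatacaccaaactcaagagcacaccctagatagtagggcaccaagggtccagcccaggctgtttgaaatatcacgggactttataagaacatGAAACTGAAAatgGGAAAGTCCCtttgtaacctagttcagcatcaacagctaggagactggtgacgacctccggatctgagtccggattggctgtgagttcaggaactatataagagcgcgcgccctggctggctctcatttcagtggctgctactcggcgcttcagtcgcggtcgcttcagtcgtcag
Tap1, chr17:34187306-34187605, plus strand: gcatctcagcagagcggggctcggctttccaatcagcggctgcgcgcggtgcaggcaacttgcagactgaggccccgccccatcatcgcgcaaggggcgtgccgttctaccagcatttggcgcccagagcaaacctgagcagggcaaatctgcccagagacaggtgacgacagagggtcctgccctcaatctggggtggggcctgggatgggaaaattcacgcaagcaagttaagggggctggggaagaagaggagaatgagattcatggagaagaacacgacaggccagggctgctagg
The Psmb8 window held 1 interferon-γ activated site, whose first base was at position -97 from the start site. Psme1 had a response element core on the minus strand at position 10, after the start site. B2m had a response element core at position -139 and a kappaB site on the minus strand at position -126. Tap1 and Psmb9 are read in opposite directions from start sites 226 bases apart, so 275 bases of their windows are the same, and no match was found there or in the windows of Psmb10 and Tapbp. On chromosome 17 the reference table lists Psmb9, Tap1, Psmb8 and Tap2 as 4 consecutive genes. A match is a description of letters, and its absence says only that these letters are not in the window. The windows are those of the reference genome, and the sequence of the NOD mice used here was not checked.

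Expression was read as array signal, and log2 values are of signal + 16, an offset that understates the change of dim probe sets. Median signal per array was 40.1 to 48.5, with 29.7% to 35.3% of probe sets below 16, and replicates of 1 group correlated at 0.966 or more. The DC label was checked against 8 DC markers. None of the 8 had a median below 16 in any group, and Itgax (CD11c) ran from 184 to 1326. None of 10 neutrophil markers had a median below 16 at 0 or 6 h either, so this check does not set DC apart from other cells. The number of arrays limits the precision. In bulk RNA, fewer cells of a type and less RNA per cell cannot be told apart.

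Measures of RNA and cell make-up differed between the DC types and stand beside every GM4 against GM result below. The 3′/5′ signal ratio of the β-actin control was 1.13 to 1.44 on GM4 arrays and 1.43 to 2.26 on GM arrays (exact two-sided permutation within times, p = 0.000833, adjusted p = 0.00125). That of Gapdh was 1.03 to 1.48 on GM4 arrays and 1.18 to 2.46 on GM arrays (exact permutation p = 0.00333, adjusted p = 0.00333). Hybridisation controls were also dimmer in GM4 DC, at a mean log2 signal of 8.39 to 8.99, against 9.02 to 10.3 on GM arrays. Of 9 monocyte and macrophage markers, the count that was lower in GM4 DC was 6 at 0 h, 8 at 6 h and 2 at 20 h. Their summed signal was 3979 to 4459 in GM4 DC and 11908 to 14467 in GM DC at 0 h, 4825 to 6356 in GM4 DC and 17540 to 24740 in GM DC at 6 h, and 8908 to 9172 in GM4 DC and 15323 to 16373 in GM DC at 20 h. In each 0 h group 1 of the 9 had a median below 16, and none did at 6 or 20 h. Of the 8 DC markers, 3, 2 and 1 were higher in GM4 DC at 0, 6 and 20 h and none was lower. Of 10 neutrophil markers 3 were higher and 1 lower at 0 h, none passed at 6 h and 1 was lower at 20 h. Of all probe sets, 6.86%, 6.39% and 3.14% were higher in GM4 DC at those times, and 7.12%, 4.74% and 1.56% were lower. The part of cell make-up in the results was not tested, and the fit with RNA quality as a covariate is given where it changed a call between the DC types that is printed below. Since the β-actin ratios of the DC types barely overlapped, that fit cannot tell RNA quality from DC type. Each call was repeated under up to 27 alternatives, 15 of which leave out 1 array.

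**Figure D1:**
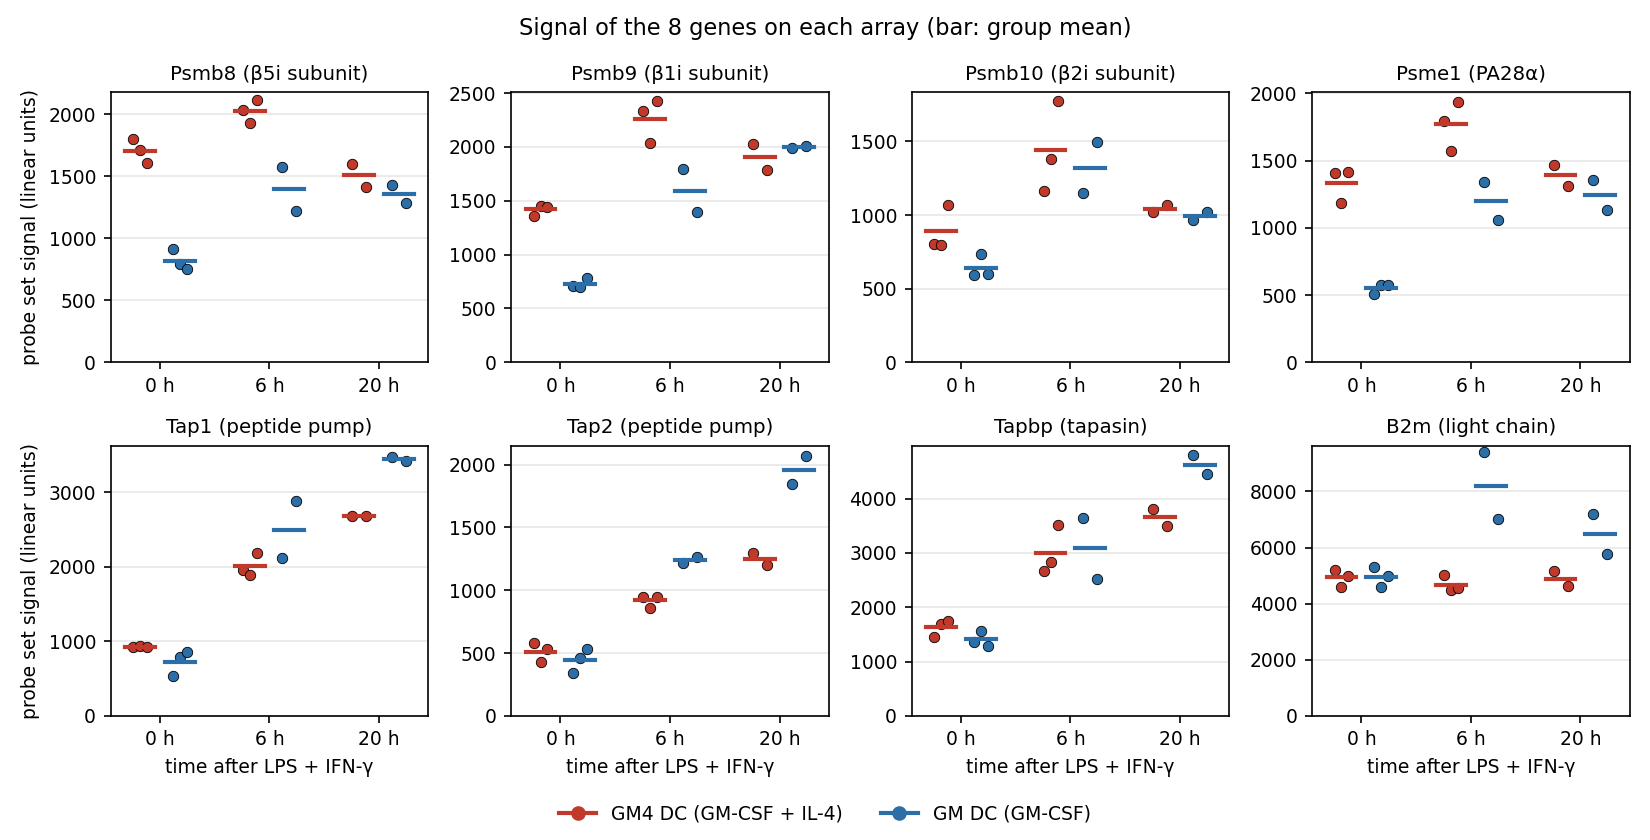
Signal of the main probe set of each of the 8 genes on every array, by time after LPS + IFN-γ, with GM4 DC left of GM DC and a bar at the group mean. At 0 h the GM4 arrays of Psmb8, Psmb9 and Psme1 lie above all GM arrays, and both GM 6 h arrays of B2m lie above every GM4 array.

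At 0 h, GM4 DC had more signal of 3 of the 8 genes than GM DC: Psmb8, Psmb9 and Psme1. That the GM4 0 h arrays are unstimulated rests on their titles, since their source names mention the stimulus. At 20 h no member passed between the DC types, and the 20 h responses of these 3 genes were larger in GM DC. At 0 h, 3 of 8 members were higher in GM4 DC (limma, adjusted p under 0.05) and 0 were lower, where 6.86% of all probe sets were higher, 7.12% were lower and 14% were called in either direction. At 6 h, 3 were higher and 1 was lower, against backgrounds of 6.39% and 4.74%, with 11.1% called in either direction. At 20 h none was called, where 3.14% of probe sets were higher, 1.56% were lower and 4.7% were called in all. The median member difference, GM4 minus GM, was log2 0.41 (0 h), 0.04 (6 h) and -0.21 (20 h), and the median of all probe sets was -0.06, -0.04 and -0.04 at those times.

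**Figure D2:**
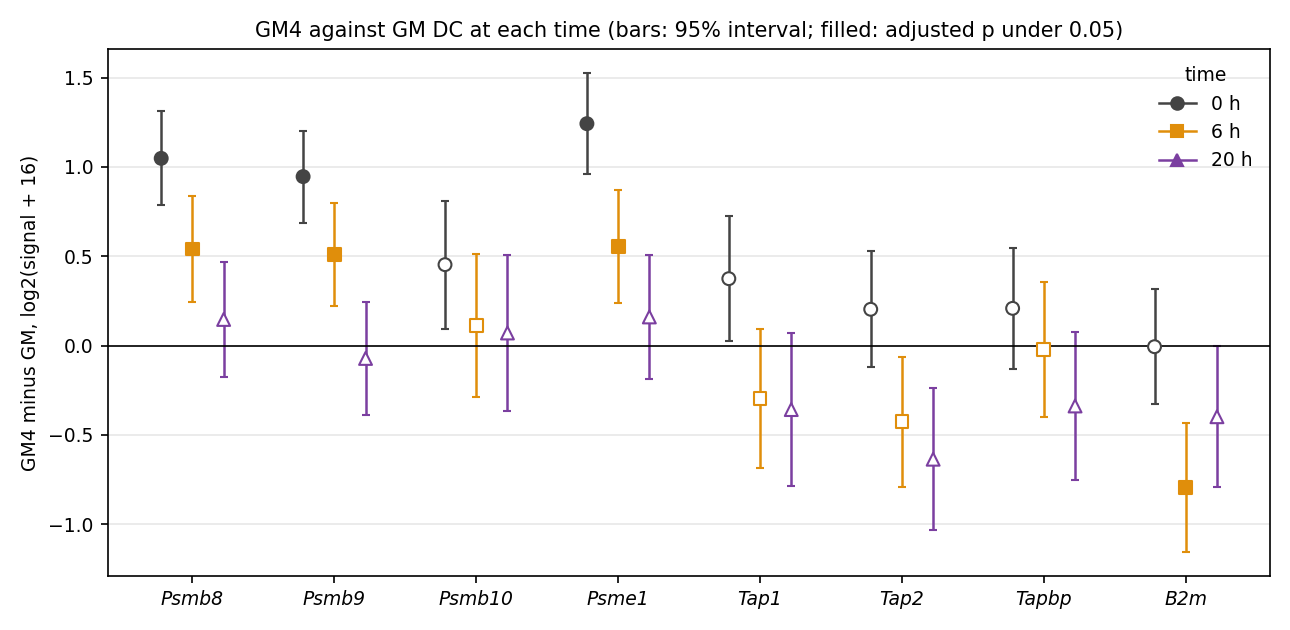
Difference between GM4 and GM DC in log2(signal + 16) for the main probe set of each gene at 0, 6 and 20 h, with 95% intervals, and filled symbols for adjusted p under 0.05. Psmb8, Psmb9 and Psme1 pass at 0 and 6 h, B2m passes at 6 h on the other side of 0, and no symbol is filled at 20 h.

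All 8 genes rose in GM DC within 6 h of LPS and interferon-γ, and 7 of 8 were higher at 20 h than at 0 h. Of all probe sets, 8.52% were higher and 15.7% lower at 6 h (24.2% called), and 11% higher and 16% lower at 20 h (27% called). In GM4 DC, 5 members rose at 6 h, where 5.84% of probe sets did and 10% fell (15.9% called). With the replicate number as a block Psme1 also passed there (limma, adjusted p = 0.0185). In GM4 DC 4 members were higher at 20 h than at 0 h, where 8.71% of probe sets were higher and 12.3% lower (21% called). The median member change was 1.09 at 6 h and 1.29 at 20 h in GM DC, and 0.67 and 0.33 in GM4 DC, while the median of all probe sets lay between -0.01 and 0.04. Between 6 and 20 h, 2 members rose further in GM DC (8.7% of probe sets higher, 7.75% lower, 16.5% called) and none was called in GM4 DC (5.68% higher, 6.01% lower, 11.7% called). The 6 h and 20 h comparisons share their 0 h arrays.

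Marker lists had also changed from 0 h, at 6 h and at 20 h. Of 9 monocyte and macrophage markers, 4 were higher and 2 lower at 6 h in GM4 DC, and 4 higher and 1 lower in GM DC. Of 10 neutrophil markers, 1 was higher and 1 lower at 6 h in GM4 DC, and 1 was higher in GM DC. Of 8 DC markers, 1 was higher and 1 lower at 6 h in GM4 DC, and 2 were higher and 1 lower in GM DC. The summed signal of 10 neutrophil markers was 3015 to 3125 at 20 h and 9661 to 15133 at 0 h in GM4 DC, and 3377 to 4520 at 20 h and 8663 to 9300 at 0 h in GM DC. Of the 10, 7 were lower at 20 h in GM4 DC and 5 in GM DC, and 1 was higher in each. Of the 9 monocyte and macrophage markers, 5 were higher and 1 lower at 20 h in GM4 DC, and 4 were higher and 2 lower in GM DC. The summed signal of the DC markers was 11333 to 12946 at 20 h and 16256 to 21471 at 0 h in GM4 DC, where 2 of 8 were lower, and 9601 to 13278 at 20 h and 12069.6 to 16091 at 0 h in GM DC, where 1 was higher and 1 lower. Of all probe sets, 8.71% were higher and 12.3% lower at 20 h in GM4 DC, and 11% higher and 16% lower in GM DC. At 6 h, 5.84% were higher and 10% lower in GM4 DC, and 8.52% higher and 15.7% lower in GM DC. The part of these cells in the 6 and 20 h results was not tested.

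The change from 0 h was set directly against the other DC type by the difference of the responses, GM4 minus GM. At 20 h, 3 of 8 members had a smaller response in GM4 DC, where 0.708% of probe sets did, 0.555% had a larger one and 1.26% were called in all. At 6 h none of the 8 was called, where 0.958% of probe sets were (0.443% larger and 0.515% smaller in GM4 DC). All 8 differences were below 0 at both times, with medians of -0.57 at 6 h and -0.79 at 20 h beside a median of 0.03 over all probe sets at each time. These differences use the same 0 h arrays as the 0 h comparison and are not independent of it.

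**Figure D3:**
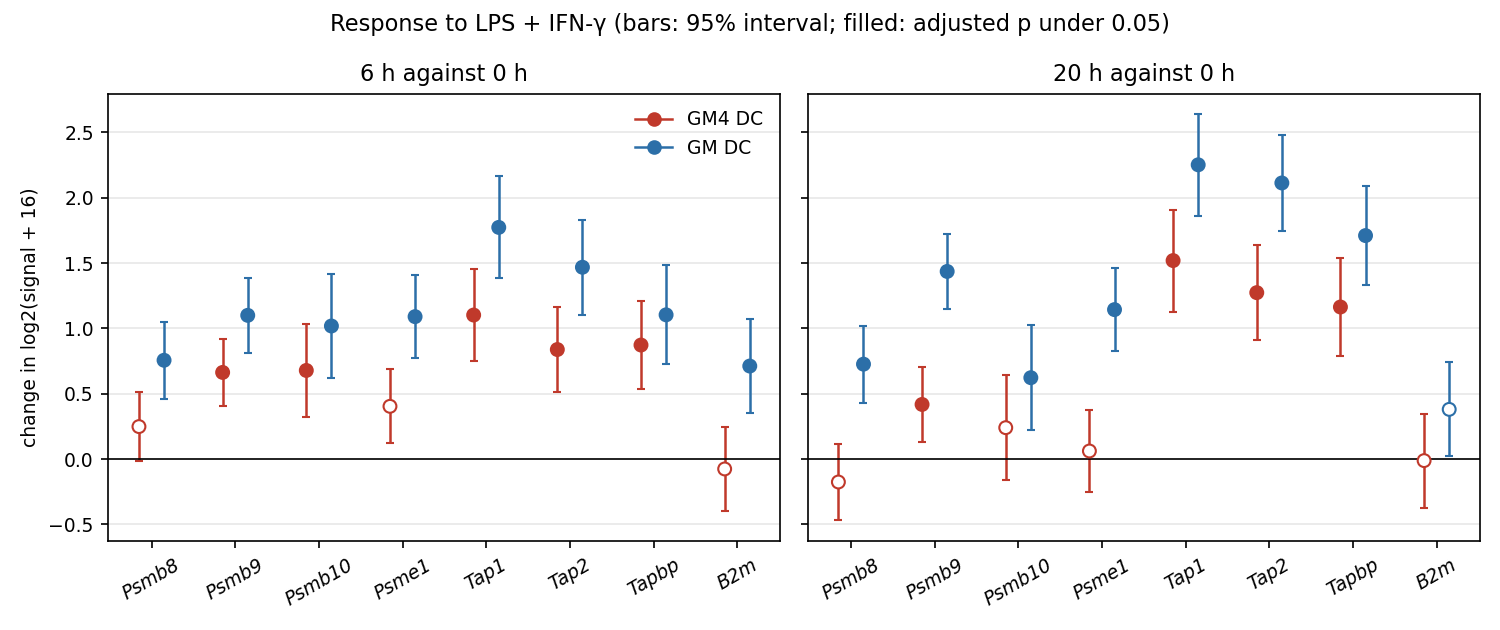
Change from 0 h in log2(signal + 16) of each gene in GM4 DC and GM DC, at 6 h and 20 h, with 95% intervals, and filled symbols for adjusted p under 0.05. Every GM4 point lies below the GM point of the same gene and time, and for Psmb8, Psmb9, Psme1 and Tap2 the intervals at 20 h do not meet.

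Psmb8, the β5i subunit with chymotrypsin-like activity, was 2.07-fold higher in GM4 DC at 0 h. Its signal at 0 h was 1798, 1708 and 1604 in GM4 DC and 909.5, 793 and 749 in GM DC. The 2 sets of arrays did not overlap, and the difference was log2 1.05 ± 0.12 (limma standard error, adjusted p = 7.36e-05). At 6 h the signals were 2034, 1932 and 2111 in GM4 DC and 1573 and 1222 in GM DC, again without overlap, and the difference was 0.54 ± 0.14 (adjusted p = 0.0206). At 20 h they were 1602 and 1413 in GM4 DC and 1433 and 1287 in GM DC. These arrays overlapped, with a difference of 0.15 and a 95% interval of -0.18 to 0.47. In GM DC Psmb8 rose by 0.76 ± 0.14 at 6 h (adjusted p = 0.00096) and was 0.73 ± 0.14 above 0 h at 20 h (adjusted p = 0.00104). In GM4 DC neither change passed, at 0.25 (-0.01 to 0.51) for 6 h and -0.18 (-0.47 to 0.12) for 20 h. The 20 h responses differed by -0.90 ± 0.19 (adjusted p = 0.0385). From lowest to highest group mean the order was GM 0 h, at 817 ± 82.9 (SD, n = 3), then GM 20 h, GM 6 h, GM4 20 h, GM4 0 h and GM4 6 h, at 2026 ± 90.0 (SD, n = 3), and the arrays of GM 20 h, GM 6 h and GM4 20 h overlapped.

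Psmb9, the β1i subunit encoded next to Tap1, was also higher in GM4 DC at 0 h. At 0 h it read 1362, 1451 and 1445 in GM4 DC and 706, 699.7 and 783 in GM DC. Every GM4 array was above every GM array, and the 1.93-fold difference was log2 0.95 ± 0.12 (adjusted p = 0.00014). At 6 h it read 2330.0, 2032 and 2424 in GM4 DC and 1795 and 1391 in GM DC, without overlap, for a difference of 0.51 ± 0.13 (adjusted p = 0.0248). At 20 h it read 2023 and 1786 in GM4 DC and 1993 and 2005 in GM DC. The GM arrays lay within the range of the GM4 arrays, and the difference was -0.07 (95% interval -0.39 to 0.24). Psmb9 rose in both types: by 0.66 ± 0.12 at 6 h (adjusted p = 0.00166) and 0.42 ± 0.13 at 20 h (adjusted p = 0.0399) in GM4 DC, and by 1.10 ± 0.13 (adjusted p = 3.84e-05) and 1.44 ± 0.13 (adjusted p = 2.46e-06) in GM DC. The 20 h call in GM4 DC was lost in 9 of 27 alternatives, among them leaving out any 1 of the GM4 0 h or 20 h arrays (adjusted p up to 0.235) and fitting only the groups compared (0.0512). The 20 h responses differed by -1.02 ± 0.19 (adjusted p = 0.022). GM 0 h was the lowest group, at 729.6 ± 46.5 (SD, n = 3), and GM4 6 h the highest, at 2262 ± 205 (SD, n = 3). Between them GM4 0 h, GM 6 h, GM4 20 h and GM 20 h followed in that order, each overlapping its neighbour.

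Psmb10, the β2i subunit with trypsin-like activity, pointed the same way at 0 h without passing the test. It read 802, 799 and 1067 in GM4 DC at 0 h, against 591, 738 and 599.7 in GM DC. The arrays did not overlap, but the difference of 0.45 (95% interval 0.09 to 0.81) had an adjusted p of 0.0923. It passed in 1 of 27 alternatives, with the replicate number as a block (adjusted p = 0.0366). After 6 h it read 1165, 1381 and 1776 in GM4 DC and 1151 and 1494 in GM DC, and after 20 h it read 1017 and 1070.4 in GM4 DC and 969 and 1018 in GM DC. Arrays of the DC types overlapped at both times, with differences of 0.11 (-0.29 to 0.51) and 0.07 (-0.37 to 0.51). Psmb10 rose at 6 h by 0.68 ± 0.17 in GM4 DC (adjusted p = 0.0123) and by 1.02 ± 0.19 in GM DC (adjusted p = 0.00105). At 20 h it was 0.62 ± 0.19 above 0 h in GM DC (adjusted p = 0.0223) and 0.24 (-0.16 to 0.64) in GM4 DC. The 20 h call in GM DC was lost without either GM 20 h array, GM 0 h replicate 1 or 3, or the 2 arrays GM 0 h replicate 3 and GM 6 h replicate 1 (adjusted p up to 0.127), and the 6 h call in GM4 DC without GM4 0 h replicate 1 or 2 or GM4 6 h replicate 3 (up to 0.0578). The lowest group was GM 0 h and the highest were both 6 h groups, which overlapped, while GM4 0 h, GM 20 h and GM4 20 h overlapped in between.

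Psme1, whose product forms with Psme2 the activator that opens the proteasome gate, showed the largest 0 h difference of the 8 genes. Its main probe set read 1406, 1182 and 1412 in GM4 DC at 0 h and 509, 576 and 575 in GM DC. No array overlapped, and the 2.37-fold difference was log2 1.24 ± 0.13 (adjusted p = 3.57e-05). At 6 h it read 1795, 1574 and 1939 in GM4 DC and 1344 and 1060.3 in GM DC, for a difference of 0.56 ± 0.15 without overlap (adjusted p = 0.0256). At 20 h it read 1469.6 and 1309.6 in GM4 DC and 1353 and 1136 in GM DC, which overlapped, and the difference was 0.16 (95% interval -0.19 to 0.51). Psme1 rose in GM DC by 1.09 ± 0.15 at 6 h (adjusted p = 9.33e-05) and 1.14 ± 0.15 at 20 h (adjusted p = 4.1e-05). In GM4 DC the 6 h change was 0.40 (0.12 to 0.69, adjusted p = 0.0528), and 0.40 with an adjusted p of 0.0185 with the replicate number as a block. It passed in 9 of 27 alternatives, among them this block, array weights and the RNA quality covariate. The 20 h change in GM4 DC was 0.06 (-0.25 to 0.38). The 20 h responses differed by -1.08 ± 0.21 (adjusted p = 0.0245). Its GM 0 h group, at 553 ± 38.4 (SD, n = 3), stood below all others, and GM4 6 h, at 1769 ± 184 (SD, n = 3), above them, while the other 4 groups overlapped in a chain. The second Psme1 probe set read 0.643 to 18 and was below 16 on 13 arrays, and nothing passed on it.

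With RNA quality as a covariate the 0 h differences of Psmb8, Psmb9 and Psme1 were 0.89, 1.06 and 1.39, with adjusted p-values of 0.00545, 0.00171 and 0.00056. This covariate largely follows DC type, so it cannot tell RNA quality from DC type at either time. At 6 h none of these 3 genes passed with that covariate (adjusted p = 0.0525 to 0.261). With it the 6 h difference of Psmb8 was smaller than without it, at 0.38, and those of Psmb9 and Psme1 were larger, at 0.63 and 0.71. The 6 h differences were also less firm elsewhere. None of the 3 passed when only the groups compared were fitted (0.108 to 0.147), or without GM4 6 h replicate 3. Psmb9 and Psme1 lost the 6 h call with array weights (adjusted p = 0.0685 and 0.0739) and without GM4 6 h replicate 1. Psme1 lost it when its 2 probe sets were averaged (0.32, adjusted p = 0.213). Without GM 6 h replicate 2, which leaves a single GM array, the differences of Psmb8, Psmb9 and Psme1 were 0.36, 0.33 and 0.39. The 20 h response differences rest on few arrays, since none of the 3 passed without either GM4 20 h array, either GM 20 h array or GM 0 h replicate 2, and Psmb9 alone passed without GM4 0 h replicate 1. Psmb8 also lost this call with median centring (adjusted p = 0.0522) and without GM4 0 h replicate 2 or 3, GM 0 h replicate 3 or GM4 6 h replicate 2 or 3, and Psme1 lost it when its 2 probe sets were averaged (-0.63, adjusted p = 0.229).

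Tap1, the first subunit of the peptide transporter, had the largest changes from 0 h of the 8 genes in both DC types. At 0 h it read 923, 935 and 923 in GM4 DC and 531, 791 and 856 in GM DC, a difference of 0.37 (95% interval 0.03 to 0.72) that did not pass, although the arrays did not overlap. With RNA quality as a covariate this difference was 0.73 and passed (adjusted p = 0.0409). At 6 h it read 1955, 1889 and 2193 in GM4 DC and 2117 and 2881 in GM DC, and at 20 h 2685 and 2688 in GM4 DC and 3481 and 3417 in GM DC. The arrays overlapped at 6 h, and at 20 h both GM arrays were above both GM4 arrays. The differences at those times were -0.30 (-0.69 to 0.09) and -0.36 (-0.79 to 0.07). In GM4 DC Tap1 rose 2.15-fold at 6 h, by 1.10 ± 0.16 (adjusted p = 0.000356), and 2.87-fold at 20 h, by 1.52 ± 0.18 (adjusted p = 4.54e-05). In GM DC it rose 3.42-fold at 6 h, by 1.77 ± 0.18 (adjusted p = 8.48e-06), and 4.76-fold at 20 h, by 2.25 ± 0.18 (adjusted p = 6.8e-07). The responses differed by -0.67 (-1.19 to -0.15) at 6 h and -0.73 (-1.28 to -0.18) at 20 h, and neither passed. The second Tap1 probe set read 3.18 to 46.3, was below 16 on 7 arrays and passed in no comparison. The order of group means followed time, with GM4 6 h and GM 6 h, and GM 6 h and GM4 20 h, overlapping.

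Tap2, the other transporter subunit, also rose in both types. It read 576, 427 and 531 in GM4 DC and 341, 463 and 535 in GM DC at 0 h, which overlapped (0.20, 95% interval -0.12 to 0.53). At 6 h it read 949.9, 862 and 950.3 in GM4 DC and 1216 and 1269 in GM DC, and at 20 h 1299.8 and 1201 in GM4 DC and 1843 and 2066 in GM DC. All GM arrays were above all GM4 arrays at both times, yet the differences of -0.43 (-0.79 to -0.06) and -0.64 (-1.04 to -0.24) had adjusted p-values of 0.131 and 0.0718, and the 20 h difference passed in 5 of 27 alternatives. Tap2 rose by 0.84 ± 0.15 at 6 h (adjusted p = 0.00166) and 1.27 ± 0.17 at 20 h (adjusted p = 0.00011) in GM4 DC, and by 1.47 ± 0.17 (adjusted p = 2.42e-05) and 2.11 ± 0.17 (adjusted p = 6.55e-07) in GM DC. In GM DC it also rose from 6 h on, by 0.65 ± 0.19 (adjusted p = 0.0286), a step that reached 0.44 (0.07 to 0.80) in GM4 DC and did not pass. The 20 h responses differed by -0.84 (-1.35 to -0.32, adjusted p = 0.122). Only the 0 h groups, and GM 6 h with GM4 20 h, overlapped among neighbours in the order of means.

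Tapbp, which bridges the transporter to empty class I molecules, did not pass between the DC types at any time and rose in both. At 0 h its main probe set read 1447, 1686 and 1750.4 in GM4 DC and 1366, 1562 and 1291 in GM DC. At 6 h it read 2668, 2829 and 3521 in GM4 DC and 3651 and 2518 in GM DC, and at 20 h 3817 and 3499.8 in GM4 DC and 4803 and 4454 in GM DC. The arrays of the types overlapped at 0 and 6 h, and at 20 h the GM arrays were the higher ones, with differences of 0.21 (-0.13 to 0.55), -0.02 (-0.40 to 0.36) and -0.34 (-0.75 to 0.08). The rise was 0.87 ± 0.16 at 6 h (adjusted p = 0.00164) and 1.16 ± 0.18 at 20 h (adjusted p = 0.000304) in GM4 DC, and 1.10 ± 0.18 (adjusted p = 0.000359) and 1.71 ± 0.18 (adjusted p = 5.68e-06) in GM DC. From 6 to 20 h GM DC gained a further 0.61 ± 0.19 (adjusted p = 0.0458). This step was lost in 15 of 27 alternatives, among them median centring, array weights, the RNA quality covariate and fitting only the groups compared (adjusted p = 0.192), and was 0.34 without GM 6 h replicate 2. That of Tap2 was lost in 6, among them leaving out any 1 of the GM 6 h or 20 h arrays and fitting only the groups compared (adjusted p = 0.0536). The other 2 Tapbp probe sets, at signals of 197 to 1197 and of 215 to 577, also rose in both types at both times, by 0.86 and 0.64 at 6 h and 1.24 and 0.68 at 20 h in GM4 DC, and by 1.19 and 0.63 and then 1.84 and 0.82 in GM DC. On the last of these the 20 h difference was -0.51 (-0.82 to -0.19, adjusted p = 0.067), with all GM4 arrays below all GM arrays.

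B2m, the light chain shared by class I molecules, rose in GM DC at 6 h, and neither of its changes in GM4 DC passed. At 0 h it read 5218, 4602 and 4985 in GM4 DC and 5293, 4599 and 4983 in GM DC, for a difference of -0.01 (95% interval -0.33 to 0.32). At 6 h it read 5025, 4478 and 4540.5 in GM4 DC and 9391 and 7017 in GM DC, and at 20 h 5147 and 4640.5 in GM4 DC and 7191 and 5781 in GM DC. Both GM arrays were above every GM4 array at 6 h and at 20 h. B2m was lower in GM4 DC at 6 h, with a difference of -0.79 ± 0.17 (adjusted p = 0.00764), and it rose in GM DC at 6 h by 0.71 ± 0.17 (adjusted p = 0.00615). The 20 h values did not pass, at -0.40 (-0.79 to -0.0038) between types and 0.38 (0.02 to 0.74) in GM DC, and the GM4 changes were -0.08 (-0.40 to 0.25) and -0.01 (-0.37 to 0.35). Both 6 h calls were lost under quantile normalization (-0.18, adjusted p = 0.516, and 0.22, adjusted p = 0.337), without GM 6 h replicate 1 (adjusted p = 0.108 and 0.103) and when only the groups compared were fitted (0.0816 and 0.0745). GM 6 h replicate 1 has the highest B2m signal and the highest hybridisation controls of the series, at a mean log2 of 10.3.

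The 3 constitutive catalytic subunits that the inducible ones replace, Psmb5, Psmb6 and Psmb7, were lower at 20 h than at 0 h in GM DC and higher in GM4 than in GM DC at 20 h. Psmb5 read 366 and 330.3 at 20 h and 576, 566 and 627 at 0 h in GM DC, a change of log2 -0.74 ± 0.16 (adjusted p = 0.00266). The 20 h changes of Psmb6 and Psmb7 in GM DC were -0.67 ± 0.19 (adjusted p = 0.0168) and -0.62 ± 0.13 (adjusted p = 0.00189). In GM4 DC none of the 3 passed at 6 or 20 h against 0 h, and at 20 h GM4 DC exceeded GM DC by 0.72 ± 0.17 for Psmb5, 0.86 ± 0.21 for Psmb6 and 0.62 ± 0.14 for Psmb7 (adjusted p = 0.0291, 0.0313 and 0.0203). Psmb6 rose at 6 h in GM DC by 0.66 ± 0.19 (adjusted p = 0.0199), where its 2 arrays read 1025 and 557, and without the array GM 6 h replicate 1 this change was 0.23 and did not pass. All 3 differences at 20 h between the DC types lost their call with the RNA quality covariate (adjusted p = 0.0796, 0.156 and 0.175) and without single 20 h arrays. Averaged over its probe sets, Psmb5 did not pass at 20 h between the DC types (0.14) or against 0 h in GM DC (-0.35), and Psmb6 lost its 20 h call in GM DC without either GM 20 h array. No response difference of the 3 passed.

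For each exchanged pair the inducible minus the constitutive log2 signal was followed per array, as a change between groups, since levels of 2 probe sets cannot be compared. Psmb9 minus Psmb6 was 2.70 and 2.73 at 20 h in GM DC, against 0.59, 0.54 and 0.71 at 0 h, a gain of 2.10. In GM4 DC it was 1.77 and 1.80 at 20 h, against 1.57, 1.38 and 1.37 at 0 h, a gain of 0.35. Psmb8 minus Psmb5 gained 1.46 and Psmb10 minus Psmb7 gained 1.25 by 20 h in GM DC, and 0.13 and 0.43 in GM4 DC. The exact two-sided permutation p of each GM gain was 0.1, the smallest that 2 against 3 arrays allow, so this permutation test cannot reach the threshold. At 0 h Psmb9 minus Psmb6 was 1.44 in GM4 DC and 0.61 in GM DC as group means, and Psmb8 minus Psmb5 was 1.22 in GM4 DC and 0.46 in GM DC, both without overlap of arrays (exact permutation p = 0.1 each, the smallest possible).

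**Figure D4:**
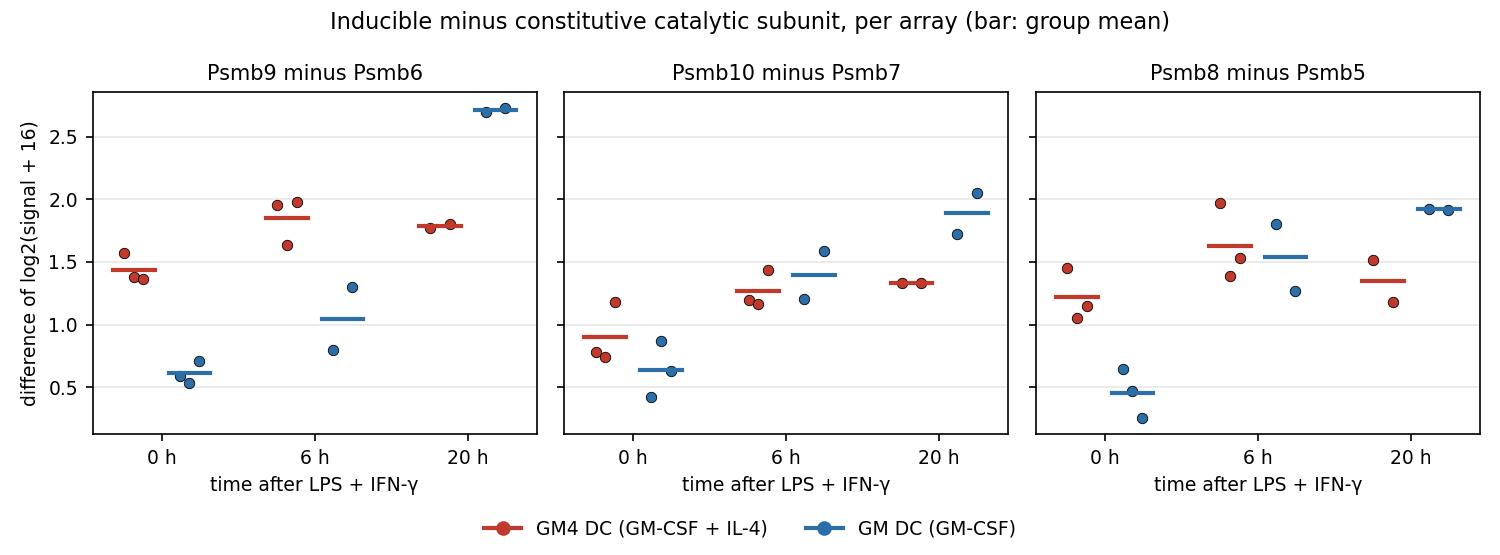
Inducible minus constitutive catalytic subunit in log2(signal + 16), 1 point per array and a bar at the group mean, with GM4 DC left of GM DC at each time. For all 3 pairs the GM arrays are the higher ones at 20 h, and for Psmb9 and Psmb8 the GM4 arrays are the higher ones at 0 h.

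Of 11 other 20S subunits, 4 were higher in GM4 DC at 0 h: Psma6 by 1.18 ± 0.15, Psma2 by 0.84 ± 0.16, Psma5 by 0.65 ± 0.14 and Psma7 by 0.64 ± 0.14. The median of the 11 was 0.28, and 6.86% of all probe sets were higher there. Psma2 and Psma5 lost their calls under the RNA quality covariate (adjusted p = 0.0722 and 0.261). Psma6, an α-ring subunit, also rose in GM DC by 0.98 ± 0.16 at 20 h (adjusted p = 0.000384) and had a smaller 20 h response in GM4 DC, with a difference of -1.28 ± 0.23 (adjusted p = 0.02). Psmb3, a structural β subunit, was lower at 20 h than at 0 h in both types, at -0.68 ± 0.15 in GM4 DC and -0.94 ± 0.15 in GM DC. Of 17 measured subunits of the 19S regulator, which unfolds ubiquitin-tagged proteins, 0 were higher and 3 lower at 20 h in GM4 DC, and 2 were higher and 7 lower in GM DC, where 12.3% of all probe sets were lower in GM4 DC and 16% in GM DC. The share in GM4 DC is near that background. The ATPase subunit Psmc3 was the most changed, at -1.06 ± 0.21 in GM4 DC and -1.47 ± 0.21 in GM DC.

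Among 5 other activators and assembly factors, the assembly chaperones Psmg1 and Psmg2 were lower at 6 and 20 h in both types. Psmg2 changed by -0.91 ± 0.28 at 20 h in GM4 DC and by -2.21 ± 0.28 in GM DC. Psme3, the nuclear 11S activator, was lower at 20 h in both, at -0.50 ± 0.15 in GM4 DC and -0.85 ± 0.15 in GM DC, while Pomp, which helps to build new proteasomes, was higher in GM DC by 1.05 ± 0.21. The 20 h calls in GM4 DC were lost in 13 (Psmg1), 8 (Psmg2) and 6 (Psme3) of 27 alternatives. Psme2, the partner of Psme1, had no single-symbol probe set and was not analysed here.

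Of 7 measured class I heavy chains, 6 were higher at 20 h in GM DC, with a list median of 0.87, and 2 in GM4 DC, H2-Q10 and H2-M3, with a median of 0.30. The shares of all probe sets higher were 11% in GM DC and 8.71% in GM4 DC. No response difference of the 7 passed. H2-K1 rose by 0.70 ± 0.19 (adjusted p = 0.0108) and H2-D1 by 0.58 ± 0.20 (adjusted p = 0.0442) in GM DC. The call of H2-D1 was lost in 12 of 27 alternatives (0.20 with quantile normalization), that of H2-T24, also among the 6, in 14 of 26, and H2-K1 lost its call without either GM 20 h array. H2-M3, which presents N-formylated peptides, rose by 1.02 ± 0.14 in GM4 DC and 1.37 ± 0.14 in GM DC and was lower in GM4 DC at 20 h, with a difference of -0.63 ± 0.15 that was lost with the RNA quality covariate (adjusted p = 0.351) or without any 1 of the 20 h arrays. Apart from H2-M3, these genes have near-identical copies that probes may not separate, and their values are uncertain for that reason. Of 4 other loading partners, Uggt1, a folding sensor of glycoproteins, was lower in GM DC at both times (-0.83 ± 0.24 and -1.28 ± 0.24), and Calr, Canx and Pdia3 passed in no comparison. Of 5 cytosolic peptidases, Lap3, an aminopeptidase, rose at 6 h by 1.16 ± 0.30 in GM4 DC and 1.07 ± 0.33 in GM DC, and Thop1, an oligopeptidase, was lower at 20 h, at -0.93 ± 0.30 in GM4 DC and -1.50 ± 0.30 in GM DC. Npepps, another aminopeptidase, was higher at 20 h by 0.61 ± 0.17 in GM4 DC (adjusted p = 0.0226) and 1.09 ± 0.17 in GM DC (adjusted p = 0.000269), and lower in GM4 DC than in GM DC at 20 h (-0.91 ± 0.19, adjusted p = 0.0132), a call lost with the RNA quality covariate (0.117). The Lap3 calls were lost in 4 alternatives in GM4 DC and 7 in GM DC, and that of Thop1 in GM4 DC in 10 of 26. The 6 h call of Uggt1 was lost in 5, among them without GM 6 h replicate 1 (-0.55).

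**Figure D5:**
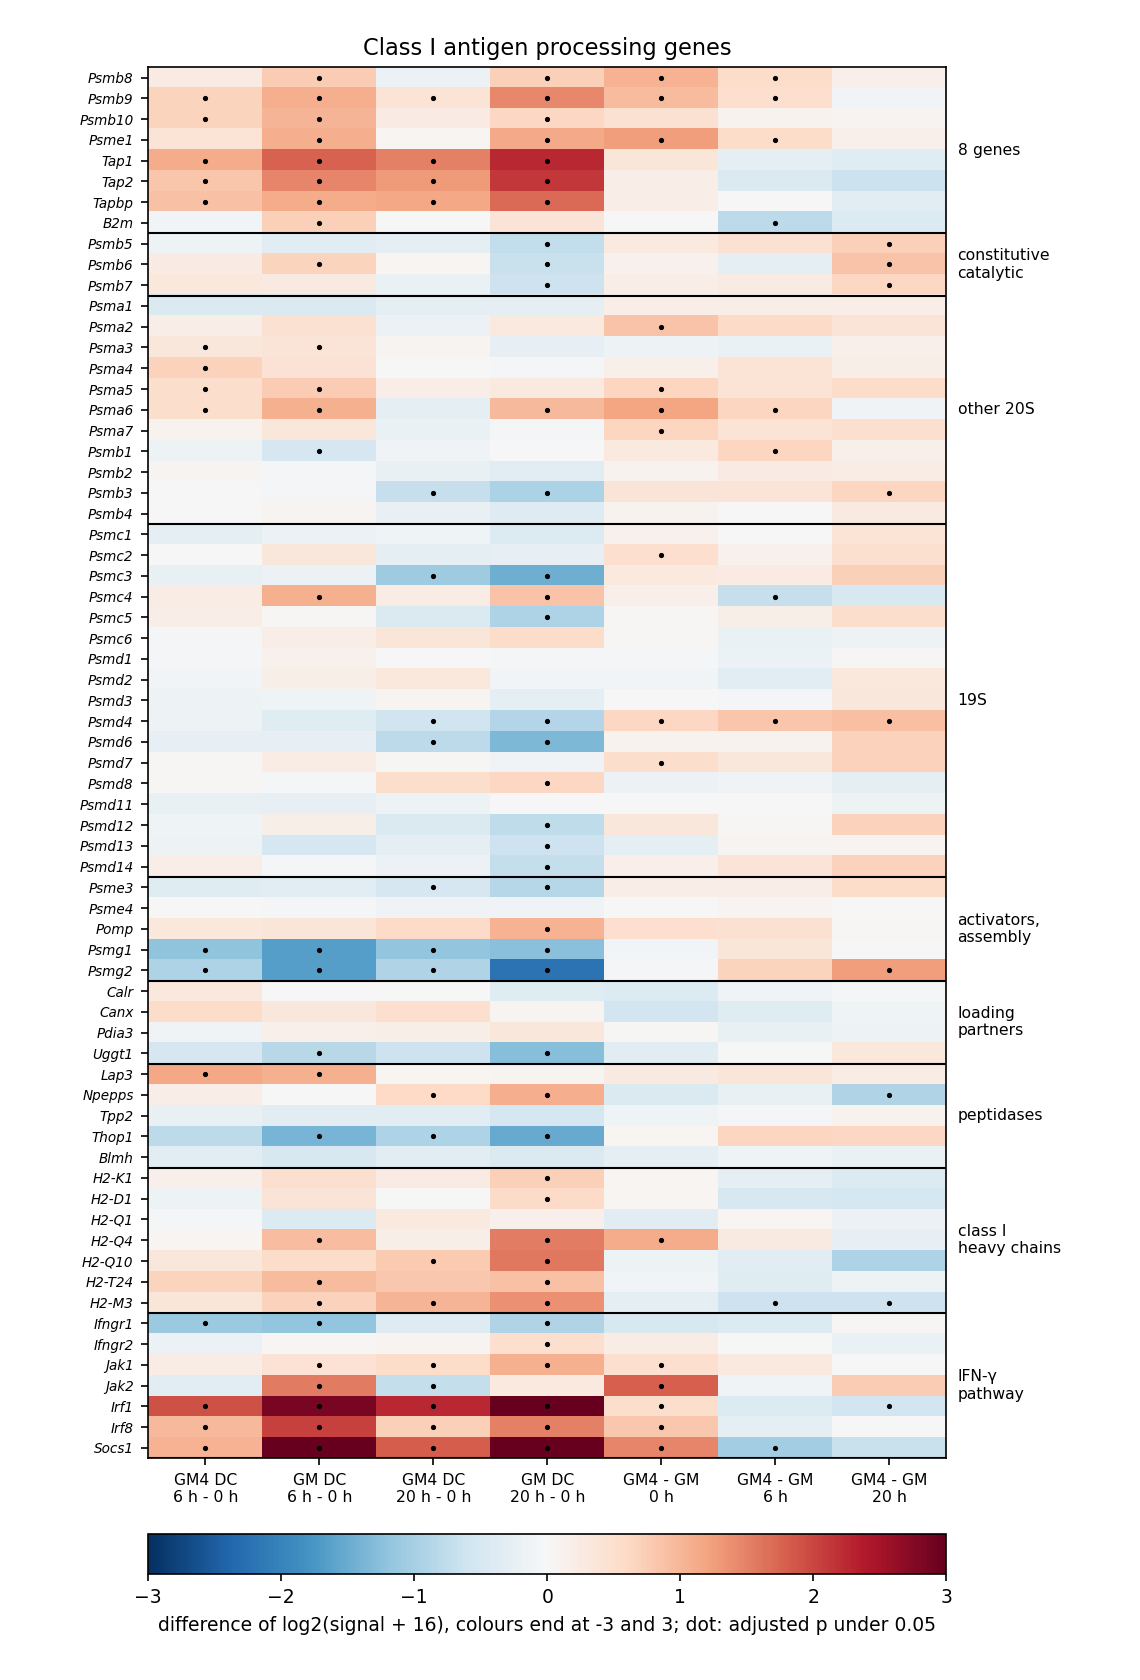
Log2 differences of the members and of the other genes of the pathway lists in each comparison, with the cells that pass at an adjusted p under 0.05 marked. The members are positive in both GM DC columns against 0 h, and Psmb5, Psmb6 and Psmb7 are negative at 20 h against 0 h in GM DC.

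Of 7 measured genes of the interferon-γ pathway, 5 were higher in GM4 DC at 0 h, with a median of 0.53, where 6.86% of all probe sets were. Of the 5, Jak1 lost its call under the RNA quality covariate. Irf1, a transcription factor that acts on class I genes, read 477, 517 and 579 in GM4 DC at 0 h and 359.8, 346 and 365 in GM DC, a difference of 0.53 ± 0.12 (adjusted p = 0.00672). It rose at 20 h by 2.26 ± 0.13 in GM4 DC and 3.38 ± 0.13 in GM DC, and these responses differed by -1.12 ± 0.18 (adjusted p = 0.0126). Socs1, a feedback inhibitor of this signal, was 1.47 ± 0.20 higher in GM4 DC at 0 h and rose at 20 h by 1.82 ± 0.22 in GM4 DC and 3.95 ± 0.22 in GM DC. Jak2, a kinase of the receptor, was 1.78 ± 0.17 higher in GM4 DC at 0 h (adjusted p = 2.04e-05) and rose at 6 h in GM DC by 1.57 ± 0.19. Ifngr1, the ligand-binding receptor chain, was lower at 6 h in both types, at -1.10 ± 0.17 in GM4 DC and -1.18 ± 0.18 in GM DC. Irf2 and Nlrc5 were not analysed here.

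Profiles of all genes over the 6 group means were compared with those of the members by the root mean square difference in log2. Nearest to the mean profile of Psmb8, Psmb9 and Psmb10 were Akap2 (0.07), Nck2 (0.07), Pde4b (0.10), Agfg1 (0.11) and Ciao2b (0.13), and Psme1 stood at rank 9 (0.14). Psmb8, Psmb9 and Psmb10 themselves stood farther from their own mean, at ranks 13, 21 and 18 (0.15, 0.17 and 0.16). Akap2 and Nck2 are dim, at mean signals of 38.7 and 42.3. Nearest to the mean of Tap1 and Tap2 were Casp1 (0.16), Eno2 (0.17), 1110038F14Rik (0.19), Ptk2b (0.19) and Sfmbt2 (0.19), with Tapbp at rank 8 (0.19). Both sets changed with the processing. Of the first 5 genes, 2 were again among the nearest with an offset of 1, 0 with an offset of 64 and 1 with quantile normalization, and of the second 5, 3, 4 and 2 were, while median centring kept all 5 of each. To the mean of Tap1 and Tap2, Psmb9 stood at rank 264, Psmb10 at 821, Psme1 at 1189, B2m at 1623 and Psmb8 at 2437, with a difference of 0.73 for Psmb8.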

How the data were processed

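RNA of 15 samples was measured on 1 Affymetrix mouse array each. The authors deposited 1 linear intensity per probe set and array, made with MAS5 per the submitters' processing notes, which name no version of it. The 2% trimmed mean was 150.1 on every array, so the deposited intensities are scaled per array, which would hide a change in the total RNA of the cells. The 66 controls among 12488 probe sets were removed, and all other 12422 entered the tests. Of these, 10833 carry 1 symbol in the platform annotation, 396 more than 1 and 1193 no symbol, and 10817 matched a RefSeq gene table by Entrez number with 0 symbols changed. Detection calls were not used here.

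Values were taken as log2(signal + 16). In R 4.3.3, limma 3.58.1 fitted 6 group means to all 15 arrays (lmFit, eBayes with an intensity trend, 9 residual and 4.76 prior degrees of freedom). There were 11 contrasts, with Benjamini-Hochberg adjustment over all probe sets per contrast and a threshold of 0.05. The fit was tested on simulated data. The members, the 8 pathway lists and the marker lists were chosen with earlier results of these data known. Lists of 7 measured genes or fewer could be named in full, and of longer lists up to 4 called genes per contrast, by size of change. The 5 genes nearest to each member profile were named.

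Replicate numbers come from the titles. Same-numbered arrays of GM4 DC at 6 h and 0 h deviated together (correlations of 0.19, 0.19 and 0.11 for replicates 1, 2 and 3), so they were taken as pairs there, and the blocked value is given for Psme1, the call it changed in that comparison. The alternatives tried were another offset (1 or 64), median centring, quantile normalization, testing only probe sets above the 40th percentile of mean signal, array weights, a fit with no intensity trend, the replicate number as a block, a covariate for RNA quality (the β-actin and Gapdh 3′/5′ log2 ratios, averaged), a fit of only the groups compared, a gene value averaged over its probe sets, and leaving out each array in turn or the 2 doubted arrays (GM 0 h replicate 3, with the highest Gapdh ratio, and GM 6 h replicate 1, with the highest hybridisation controls) together.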

Additional observations from a re-analysis of the deposited data

Results flagged for a closer look

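The following genes had a response to LPS and interferon-γ that differed between the DC types by limma's test of the difference itself, GM4 minus GM, adjusted over all probe sets. At 20 h these were the members Psmb8 (log2 -0.90, adjusted p = 0.0385), Psmb9 (-1.02, adjusted p = 0.022) and Psme1 (-1.08, adjusted p = 0.0245), and beside them Psma6 (-1.28, adjusted p = 0.02), Irf1 (-1.12, adjusted p = 0.0126) and Socs1 (-2.13, adjusted p = 0.00561). At 6 h they were Jak2 (-1.90, adjusted p = 0.00286), Irf1 (-0.94, adjusted p = 0.0181) and Socs1 (-2.52, adjusted p = 0.00141). All 9 differences were below 0. For Jak2 the 6 h change passed in GM DC and did not pass in GM4 DC. Of the calls at 6 h, that of Jak2 was lost when its probe sets were averaged (-1.08, adjusted p = 0.210), that of Irf1 in 5 of 27 alternatives, among them without GM 6 h replicate 1 (adjusted p = 0.109), and that of Socs1 in none. Of those at 20 h, the calls were lost in 12 (Psmb8), 5 (Psmb9), 7 (Psme1), 4 (Psma6), 3 (Irf1) and 1 (Socs1) of 27, and each was lost without GM4 20 h replicate 2. Groups of 2 or 3 arrays are too small for a check of single arrays that stand apart.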

How the results depend on the processing

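Over 27 alternatives and 2376 member values, 885 were called both times and 1371 neither time, 87 lost a call and 33 gained one. None of the values called at least once changed sign, and 40 of those called neither time did. Of 3826 called values of pathway genes, 501 lost their call and 1 changed sign: Psmb1 in GM DC, 20 h against 6 h, was 0.52 with its main probe set and -0.044 with the mean of its probe sets. The number of members called at 6 h between the DC types was 4, and 2 with array weights, 1 with the RNA quality covariate and 0 when only the groups compared were fitted. At 20 h it was 0, and 1 with the filter, array weights or only the groups compared, the gene being Tap2. From 6 to 20 h in GM DC it was 2, and 1 with median centring, array weights or the RNA quality covariate and 0 with only the groups compared, and in GM4 DC it was 0, and 1 with the filter, the replicate block or without the 2 doubted arrays and 3 with array weights. For the difference of 6 h responses it was 0, and 1 with the filter and 2 with the replicate block (Psme1 and B2m). Leaving out 1 array gave 3 to 3 at 0 h between types, 1 to 4 at 6 h and 0 to 1 at 20 h, 7 to 8, 6 to 7 and 0 to 2 in GM DC (6 h, 20 h, and 20 h against 6 h), 4 to 6, 3 to 4 and 0 to 1 in GM4 DC, and 0 to 1 and 0 to 3 for the response differences at 6 and 20 h. The lowest counts came without GM4 6 h replicate 3 or GM 6 h replicate 2 (6 h between types) and without GM 6 h replicate 2 or either GM 20 h array (20 h against 6 h in GM DC). Where the count was 0, 1 member passed without GM 0 h replicate 1 or 3 (20 h between types), either GM 6 h array (20 h against 6 h in GM4 DC) or GM 6 h replicate 2 (6 h response difference). The replicate block also gave Psmb10 an adjusted p of 0.0366 at 0 h between types. The fit of 6 group means does not pair by number there either, although each array correlated best with its own number (0.33, 0.06 and 0.22). Replicates 1 and 3 exceeded the correlations of GM4 DC at 6 h and 0 h, while replicate 2 barely exceeded another number (0.056 against 0.055). Median centring moved the median of all probe sets in GM DC to 0.11 at 6 h and 0.13 at 20 h. It also moved the share of higher calls to 52.3% and 54.5%, against 35.1% and 40.8%, to 60.8% against 49.1% at 0 h between types, and to 32.1% against 46.2% and 28.8% against 44.0% for the 6 and 20 h response differences. The RNA control differences between DC types (β-actin, Gapdh and hybridisation controls, -0.51, -0.53 and -0.76 in log2) ranged over -0.56 to -0.47, -0.62 to -0.44 and -0.84 to -0.67 without 1 array. With 2 or 3 arrays a group and signals scaled per array, the precision is limited, and the causes of the lost calls were not tested.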
